A study of Homo sapiens with 12 samples.

Results

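The genes described here are 53 members of a NOTCH signature of 77 genes that the study printed in its methods. They are what remained after 24 signature genes were set aside by name. Those were genes of the HES, HEY, NOTCH and JAG families, keratins, chemokines, laminins and SERPINB genes. MYC, CCND1, DSG3, OLFM4, PI3, ID3 and BMP6 were also set aside. The names to set aside were chosen with earlier results of these data known. All 53 were present in the table of estimated counts, which held 29744 entries. Cells came from 4 groups with 3 libraries each. MB157 is an established line of triple-negative breast cancer (TNBC, which lacks the estrogen and progesterone receptors and amplified ERBB2) that carries a truncated, constitutively active NOTCH1. MB157R is its derivative, grown for 25 weeks in 1 µM of a γ-secretase inhibitor (GSI), which blocks the cleavage that frees the intracellular domain of NOTCH1 (N1-ICD). Both lines were transduced with doxycycline-inducible lentiviral constructs: an empty vector (iEV) in each line, SOX2 in MB157 (iSOX2), and in MB157R a NOTCH1 without its extracellular domain (iN1-ICD). Every group, controls included, received doxycycline at 1 µg/ml for 72 h by the labels. Whether MB157R cells stood in GSI when RNA was taken is not given in the sources used here. Each group is 1 line with 1 construct, and whether its libraries came from separate cultures is not given in the sources used here.

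NOTCH receptors are cut on ligand binding, first by an ADAM protease and then by γ-secretase, and the freed intracellular domain enters the nucleus, where it binds the DNA-binding protein RBPJ and a Mastermind coactivator. HES and HEY repressors are the targets named most often, but the complex also acts on genes for secreted factors, receptors, signalling inhibitors and enzymes, and which of these respond varies between tissues. In TNBC with truncated receptors the pathway drives growth. SOX2 is a transcription factor of stem cells.

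Each library held between 32773820 and 49055208 estimated counts, and levels are given as CPM, counts divided by library size after TMM scaling, in which 1 count corresponds to 0.0208 to 0.0308 CPM. CPM values are not divided by gene length, so they are compared between groups and not between genes. The construct genes followed the labels: SOX2 averaged 7.10 CPM in MB157 iEV, 308 in MB157 iSOX2, 60.3 in MB157R iEV and 18.8 in MB157R iN1-ICD, and NOTCH1, whose counts include the construct, averaged 105, 37.6, 92.4 and 2322 CPM. All 5 epithelial markers (EPCAM, KRT8, KRT18, KRT19, CDH1) were present in every group, and their summed level ran from 1948 to 1975 CPM in MB157 iEV, 1639.8 to 1675 in MB157 iSOX2, 3634 to 3762 in MB157R iEV and 5219.8 to 5994 in MB157R iN1-ICD. In that order KRT8 averaged 222, 192, 931 and 1723 CPM and CDH1 576, 595, 306 and 384 CPM. Of 5 immune markers CD3E had 0 counts throughout, and the summed level of the list, nearly all of it CD14, ran from 36.3 to 39.8 CPM in MB157 iEV, 7.69 to 9.49 in MB157 iSOX2, 0.344 to 0.436 in MB157R iEV and 2.6 to 3.4 in MB157R iN1-ICD. The 5 fibroblast markers summed to 42.2 to 49.8 CPM in MB157 iEV and 68.9 to 75.4 in MB157 iSOX2. Their sum was 74.0 to 87.3 CPM in MB157R iEV and 155 to 165 in MB157R iN1-ICD. In that order COL1A1 averaged 18.1, 26.9, 63.6 and 141 CPM and PDGFRA 27.4, 45.0, 3.20 and 3.84 CPM. COL1A2 averaged 0.0422, 0.0306, 14.1 and 15.7 CPM. LUM and DCN lay at or under 0.314 CPM in every library. The part of these cell-type markers in the results was not tested.

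Summed over the set, the members took a larger share of the library when N1-ICD was induced. The 53 members made up 0.428 to 0.440% of all counts in MB157 iEV, 0.249 to 0.255% in MB157 iSOX2, 0.270 to 0.277% in MB157R iEV and 1.05 to 1.08% in MB157R iN1-ICD. A few genes weigh heavily in this sum: IGFBP3, SAT1 and IER3 averaged 2301, 1810 and 1163 CPM in MB157R iN1-ICD. The mean level was highest in MB157R iN1-ICD for 37 members, in MB157 iEV for 15 and in MB157 iSOX2 for 1 (MYCL). It was lowest in MB157R iEV for 21 members, in MB157 iSOX2 for 18 and in MB157 iEV for 14. Part of the signature had been kept for a higher level in MB157R iN1-ICD than in MB157R iEV, which favours genes high with N1-ICD, so these counts are a description. Replicates lay close together: among members at 1 CPM or more, the median coefficient of variation within a group was between 5.13 and 7.01%.

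**Figure D1:**
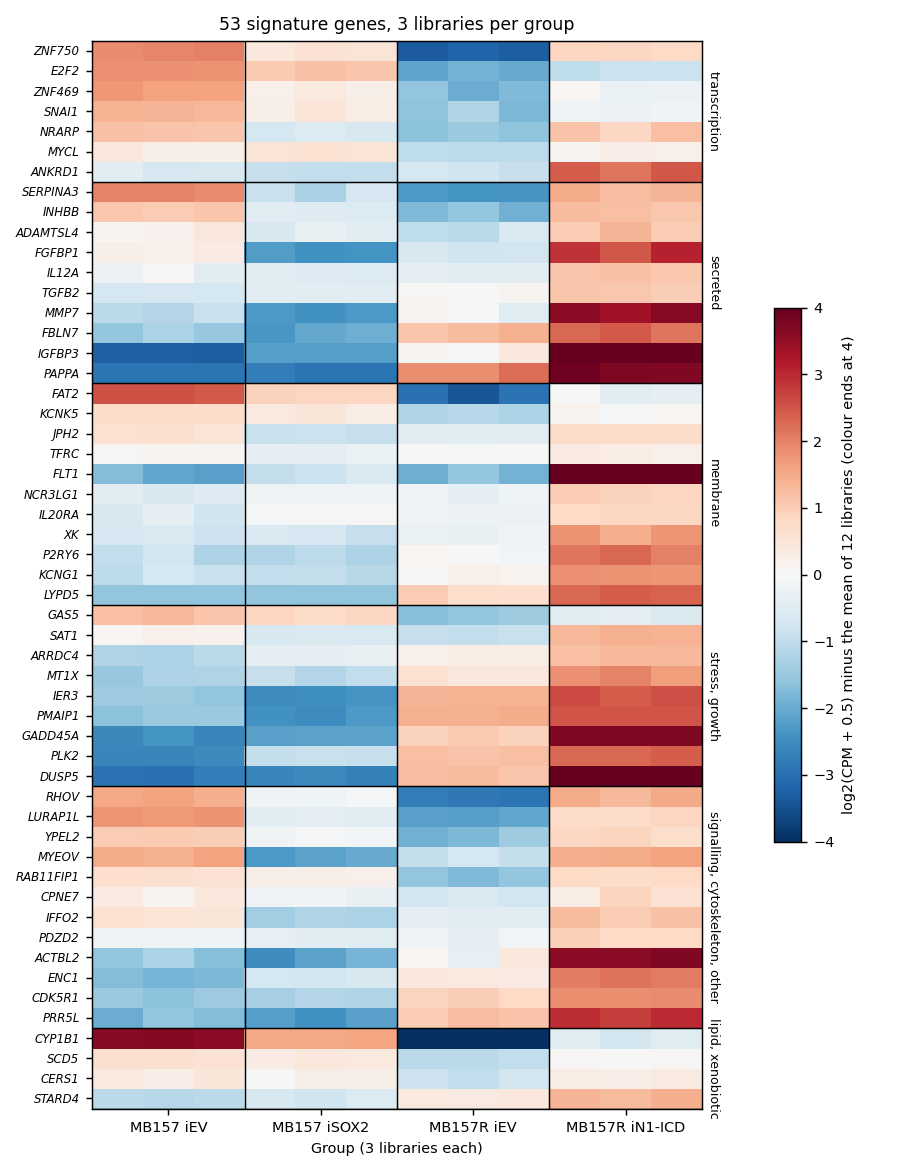
Levels of the 53 members in the 12 libraries. Each row is a gene, grouped by role and ordered within a role by the difference between MB157R iEV and MB157 iEV, each column is a library, and colour gives log2(CPM + 0.5) minus the mean of the gene over the 12 libraries. The 3 libraries of a group look alike, most transcription genes are darkest blue in MB157R iEV, and most stress genes are blue in both MB157 groups.

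The GSI-resistant line did not hold the set at a common low level. Of 46 members tested between MB157R iEV and MB157 iEV, 27 were lower, 17 were higher and 2 (IL12A and PDZD2) did not pass (edgeR quasi-likelihood test, Benjamini-Hochberg adjusted p under 0.05). Against all 11435 genes tested, of which 90.2% passed, 45% higher and 45.3% lower, the share of members that passed was near the background, 95.7%, and the share that was lower was 58.7%. The median log2 fold change was -1.02 for the members and -0.004 for all genes. At least 2-fold and past the test, 24 members were lower and 14 higher, where 18.1% of all genes were lower and 20.7% higher. The libraries of both groups did not overlap for 44 of the 46, nor for 90.9% of all genes. CYP1B1, a cytochrome P450 that oxidises estrogens and xenobiotics, had the largest fall (364-fold lower), followed by the epidermal transcription factor ZNF750 (152-fold) and the atypical cadherin FAT2 (56.1-fold). DUSP5, a nuclear phosphatase of ERK, had the largest rise among tested members (23.1-fold), followed by the kinase PLK2 (14.3-fold) and the stress gene GADD45A (12.6-fold). The MB157R iEV libraries had served in the choice of the signature, where a low level in them favoured inclusion, so this direction is not independent evidence of a loss of NOTCH output. The other 7 members (PAPPA, FLT1, IL20RA, P2RY6, XK, LYPD5 and ACTBL2) were outside the filtered table of this comparison. All 7 had a higher mean in MB157R iEV than in MB157 iEV. With no filter all 53 members entered, and 23 passed as higher and 25 as lower, so the lean to the lower side was smaller.

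With SOX2 induced, most members tested were lower. No library of MB157 iSOX2 or MB157 iEV had been used to choose the signature. The MB157 iEV libraries also serve in the comparison with MB157R iEV, so a direction shared by both comparisons is not independent evidence. Of 43 members tested, 30 were lower, 11 were higher and 2 (IL12A and KCNG1) did not pass the same test. Among all 10904 genes tested 66.4% passed, 32.5% higher and 33.9% lower, so the members' shares of 25.6% higher and 69.8% lower leaned to the lower side. The median log2 fold change was -0.54, where that of all genes was -0.002. At least 2-fold, 16 members were lower and 3 higher, where 2.6% of all genes were lower and 3.46% higher. The libraries did not overlap for 41 of the 43, nor for 70.1% of all genes. MYEOV, a gene named for its overexpression in myeloma, fell 15.5-fold, the protease inhibitor SERPINA3 8.97-fold, FGFBP1, which releases fibroblast growth factors from the matrix, 6.88-fold, LURAP1L 4.64-fold and CYP1B1 4.27-fold. PLK2 (3.28-fold), IGFBP3, which binds insulin-like growth factors (2.22-fold), and the actin-binding kelch protein ENC1 (2.17-fold) were the 3 members that rose by 2-fold or more. With the test set against a 2-fold change instead of none, 15 members were lower and 2 higher. The 10 members outside the filtered table were the 7 named above with FBLN7, DUSP5 and PRR5L.

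**Figure D2:**
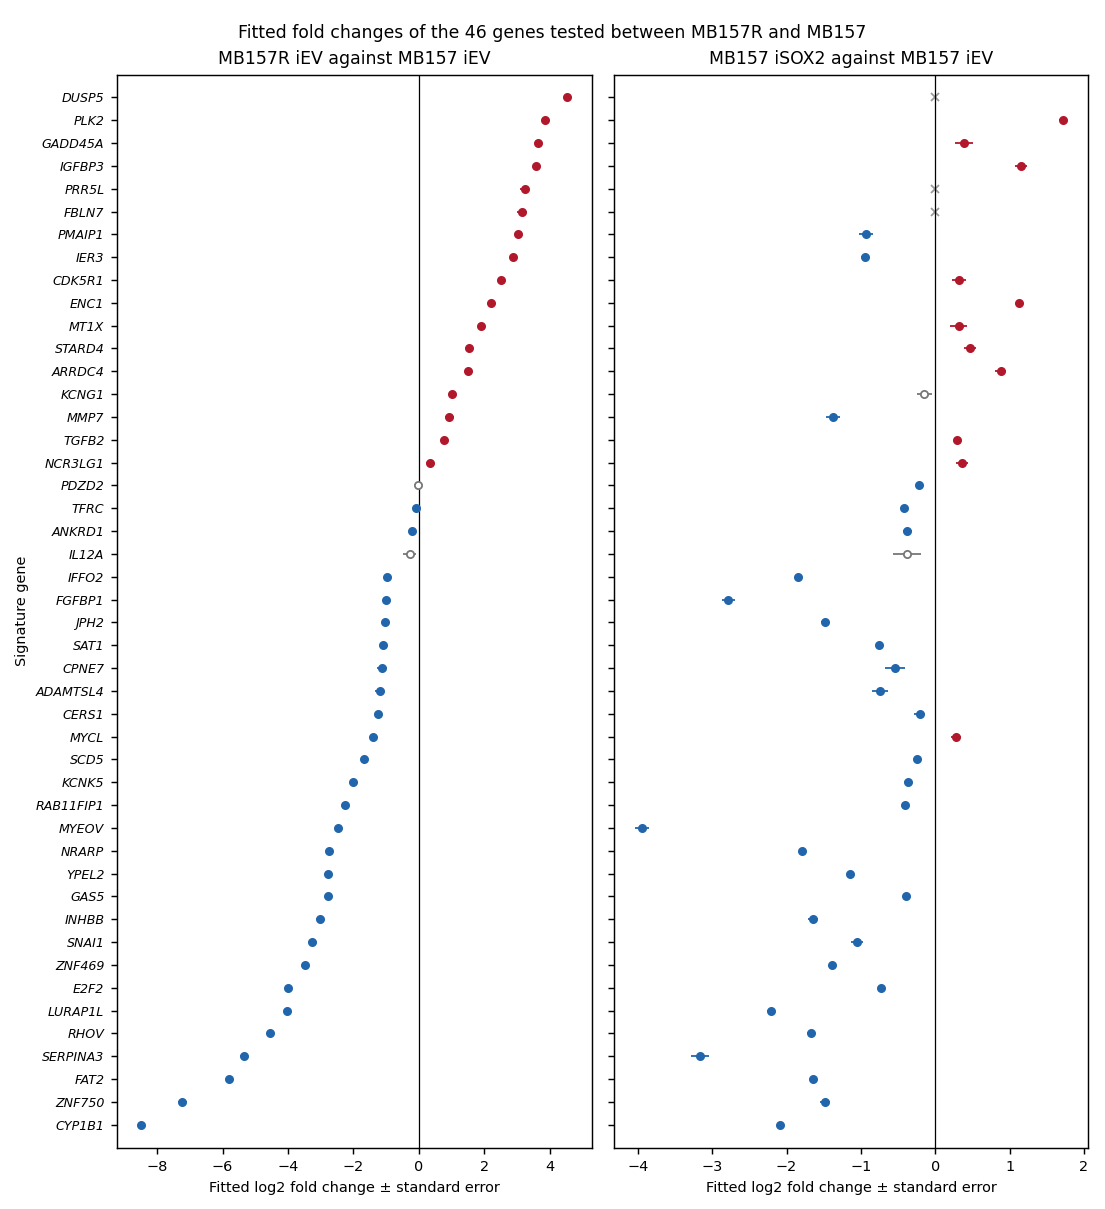
Fitted log2 fold change with its standard error for the 46 members tested between MB157R iEV and MB157 iEV (left) and for the same genes between MB157 iSOX2 and MB157 iEV (right; the axes differ in range). Red and blue points passed the test as higher and lower, open points did not pass, and a grey cross marks a gene outside the filtered table. The left panel runs from -8.51 for CYP1B1 to 4.52 for DUSP5, the right one from -3.94 for MYEOV to 1.72 for PLK2, and both panels share the MB157 iEV libraries.

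With N1-ICD induced in MB157R, all 53 members had a higher level than in MB157R iEV. This contrast had been used to choose part of the signature, so it is given as a description without a test and nothing is read from its count. Of the 53, 50 were fitted at 2-fold or more, where 4.5% of all 11210 genes in this table were and 0.687% were 2-fold lower, and the median log2 difference was 1.77. Over all those genes 59.1% passed the test and 65.2% had no overlap between the libraries of both groups, which held for all 53 members. A fold-change threshold of 1 had been set there, whose scale is not given in the sources used here. If it is read as a log2 value, TGFB2 (1.01) lay just inside it, CDK5R1 (1.98-fold) and STARD4 (1.98-fold) just outside, and the transferrin receptor gene TFRC (0.29) far outside. The widest differences were those of FLT1 (163-fold), ZNF750 (67.6-fold), IGFBP3 (34.4-fold), SERPINA3 (26.7-fold), RHOV (21.7-fold) and CYP1B1 (19.6-fold).

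The levels reached with N1-ICD were also set against those of the parental line, again as a description, since the N1-ICD libraries had helped to choose the genes. Relative to MB157 iEV, 29 members were fitted at least 2-fold higher, 7 at least 2-fold lower and 17 within 2-fold, where 23.1% and 17.5% of all 11788 genes were 2-fold higher and lower. PAPPA, FLT1, IL20RA, P2RY6, XK, LYPD5 and ACTBL2 entered only through the filtered table that includes the N1-ICD libraries, where their levels are highest. All 7 are among the 29, so that filter favoured their direction and nothing is read from it. For 7 members the libraries of both groups overlapped: INHBB, NRARP, MYCL, RHOV, CPNE7, MYEOV and CERS1. The 7 lower ones were CYP1B1, E2F2, FAT2, GAS5, ZNF469, SNAI1 and ZNF750. The libraries of these 2 groups did not overlap for the other 46 members, nor for 90.6% of all genes.

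**Figure D3:**
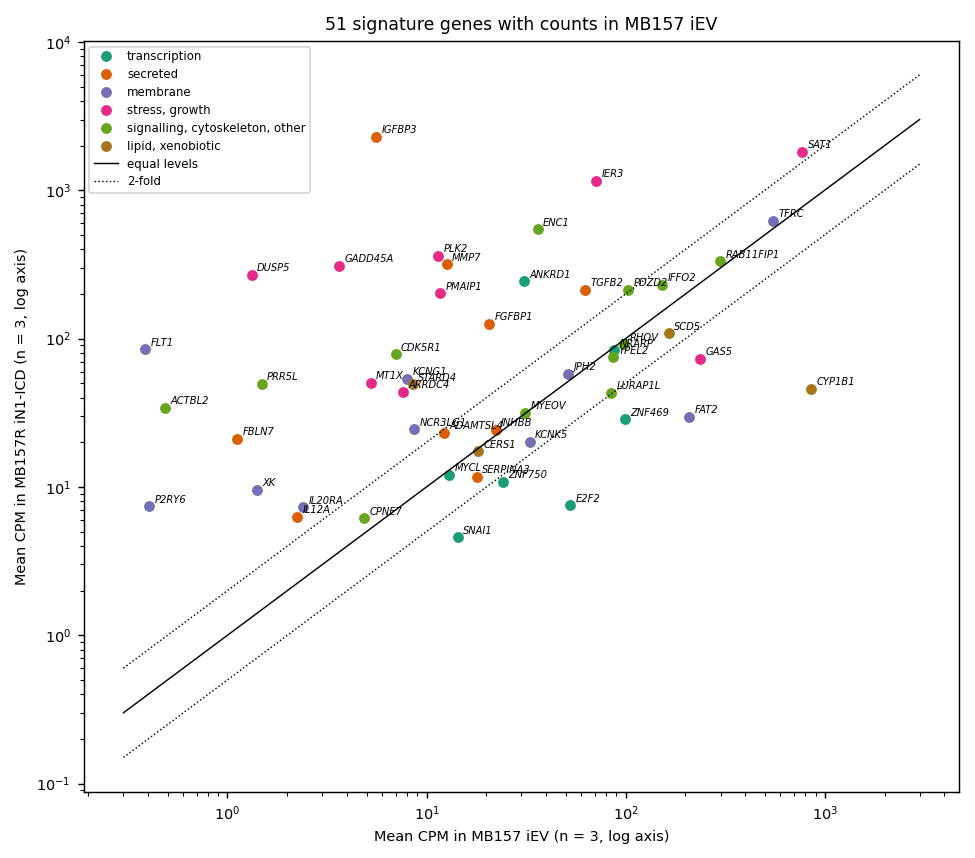
Mean level of 51 members in MB157R iN1-ICD against MB157 iEV, both in CPM on log axes, with colours for roles, a solid line at equal levels and dotted lines at 2-fold. NRARP, RHOV, MYEOV and YPEL2 lie near the solid line, IGFBP3, DUSP5, FLT1 and GADD45A far above it, and CYP1B1 far below. PAPPA and LYPD5, with 0 counts in MB157 iEV, are not drawn.

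Members that act in transcription were lower in the resistant line. All 7 tested fell in MB157R iEV (median log2 fold change -3.25), and 6 of 7 fell with SOX2, where 45.3% and 33.9% of all genes were lower. Role groups, here and below, were drawn up with earlier results of these data known, so their counts are descriptions. A low level in MB157R iEV had also favoured inclusion in the signature. NRARP (chr9:137299631-137302271 in hg38), a direct target whose ankyrin-repeat protein binds the N1-ICD complex and dampens it, stood at 89.3, 88.2 and 86.0 CPM in MB157 iEV, 23.8, 26.7 and 25.3 in MB157 iSOX2, 12.4, 14.0 and 12.7 in MB157R iEV and 88.4, 69.8 and 92.3 in MB157R iN1-ICD. The parental and the N1-ICD libraries overlapped, and the other groups lay below both. It was 6.75-fold lower in MB157R iEV (log2 fold change -2.75 ± 0.05, standard error; edgeR adjusted p = 2.32e-14) and 3.47-fold lower with SOX2 (-1.79 ± 0.04; edgeR adjusted p = 4.43e-15).

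ZNF750, which drives epidermal differentiation, had its lowest level in the resistant line. Its levels were 23.3, 24.1 and 25.2 CPM in MB157 iEV, 8.16, 9.16 and 8.59 in MB157 iSOX2, 0.138, 0.196 and 0.146 in MB157R iEV and 11.1, 10.8 and 10.5 in MB157R iN1-ICD, without overlap between any of the groups. The N1-ICD libraries thus held less than MB157 iEV and more than MB157 iSOX2. E2F2, an activator of the cell cycle, was 16.2-fold lower in MB157R iEV (3.26 ± 0.297 against 52.7 ± 0.736 CPM, mean ± SD, n = 3 in each group) and stood at 7.53 ± 0.529 CPM with N1-ICD. The zinc finger gene ZNF469 and SNAI1, a repressor of E-cadherin known from epithelial-mesenchymal transition (EMT), had the same order of groups as E2F2. SNAI1 averaged 14.3 CPM in MB157 iEV, 6.89 in MB157 iSOX2, 1.52 in MB157R iEV and 4.59 with N1-ICD, so the lowest level of this EMT gene was in the GSI-resistant line. Other EMT markers, SLUG, TWIST, vimentin and N-cadherin, were reported by the paper as higher in MB157R, in RNA and in protein.

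MYCL, a MYC family gene, was the transcription gene that rose with SOX2 (log2 fold change 0.28 ± 0.07; edgeR adjusted p = 0.00202), while it fell in MB157R iEV (-1.41). ANKRD1, a cofactor best known as a target of YAP, stood at 33.8, 29.5 and 29.5 CPM in MB157 iEV, 24.6, 23.2 and 23.5 in MB157 iSOX2, 28.6, 26.9 and 24.7 in MB157R iEV and 255, 209 and 267 in MB157R iN1-ICD. The first 3 groups lay within a narrow range and the N1-ICD libraries far above. Its fall in MB157R iEV was small (-0.21; edgeR adjusted p = 0.0132) and was lost without MB157 iEV replicate 1 (-0.13; adjusted p = 0.0936), without MB157R iEV replicate 3 (-0.15; adjusted p = 0.0548) and with either other filter.

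**Figure D4:**
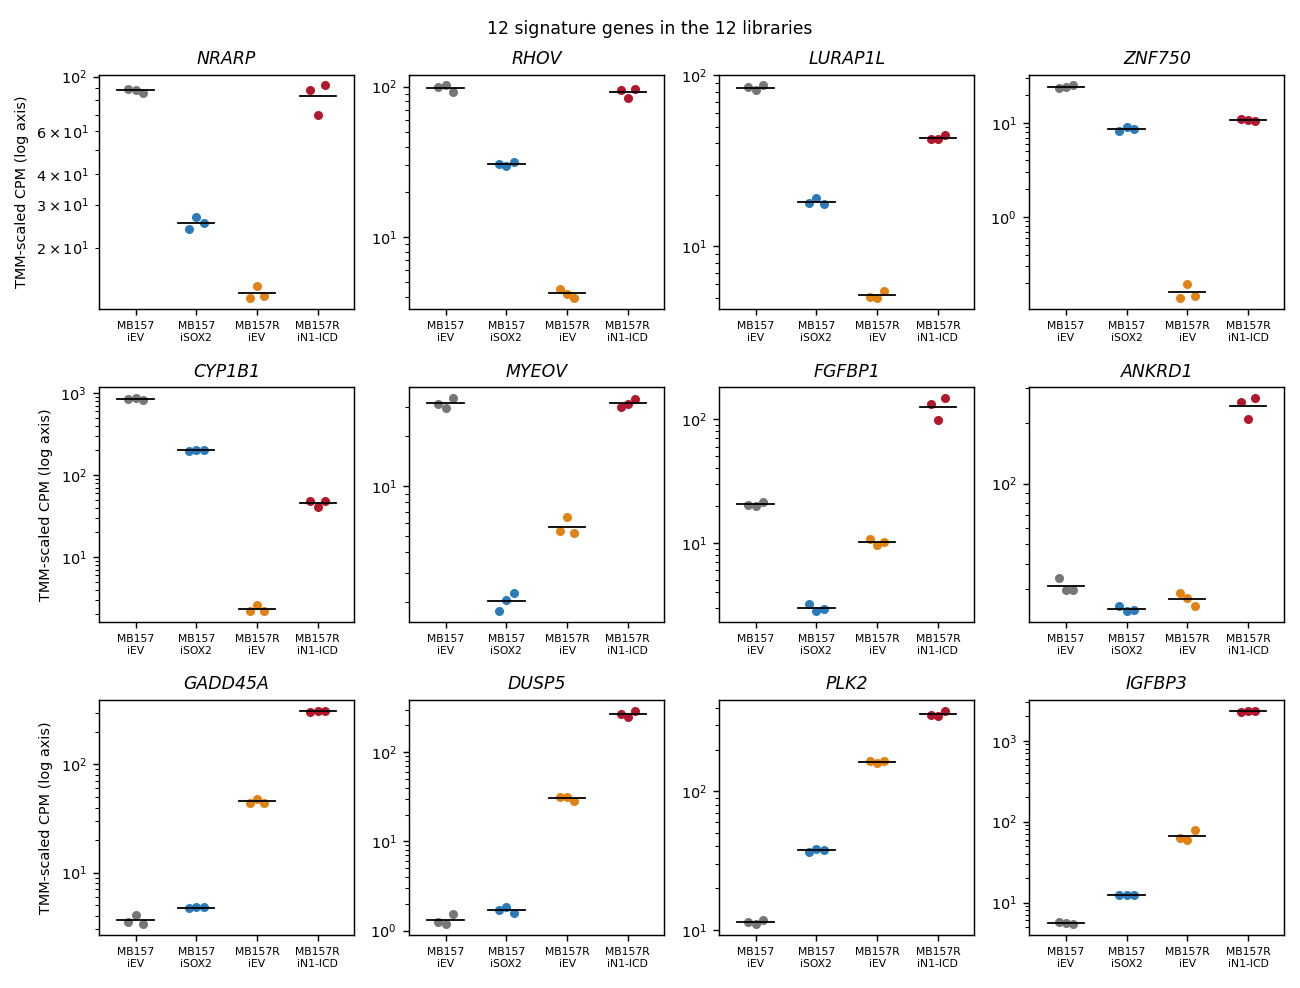
TMM-scaled CPM of 12 members on log axes, 1 panel per gene, with a point for each library and a line at each group mean (n = 3). NRARP, RHOV and MYEOV return to parental levels with N1-ICD, CYP1B1 and ZNF750 stay below them, and in the bottom row all 4 genes are higher in MB157R iEV than in MB157 iEV and highest with N1-ICD.

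Promoter letters were read for the members because they had been grouped as targets of a DNA-bound complex. RefSeq promoter sequences (GRCh38.p14) were at hand for 42 starts of 38 members, and the 250 bases before each start were searched on both strands. GTGGGAA, the core of the RBPJ site, was found at 1 member start (2.38%), that of PRR5L, and at 5.43% of all 35116 starts. The shorter TGGGAA, which every GTGGGAA contains, was at 10 member starts (23.8%) and 20.8% of all. ACAATGG, letters of a SOX site, was at 3 member starts (7.14%, of NRARP and PRR5L) and at 2.62% of all, and its shorter form ACAATG at 5 (11.9%) and 9.29%. The window of PRR5L is shown because it holds the longer RBPJ letters, and those of NRARP, LURAP1L, ANKRD1 and PLK2 because their levels are plotted and they hold TGGGAA or ACAATGG; these 4 were chosen after their values were known. Capitals mark every match to the letters searched, each window of 60 bases is written 5′ to 3′ on the strand of the gene, and letters in capitals that read TTCCCA or CCATTGT are the match on the other strand.
PRR5L, chr11:36400768-36400827, plus strand: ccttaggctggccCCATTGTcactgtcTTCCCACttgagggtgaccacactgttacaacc
NRARP, chr9:137302295-137302354, minus strand: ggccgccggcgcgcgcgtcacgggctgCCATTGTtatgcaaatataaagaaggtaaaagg
LURAP1L, chr9:12774884-12774943, plus strand: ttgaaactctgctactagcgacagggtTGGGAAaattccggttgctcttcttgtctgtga
ANKRD1, chr10:90921201-90921260, minus strand: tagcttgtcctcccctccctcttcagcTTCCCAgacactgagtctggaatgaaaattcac
ANKRD1, chr10:90921123-90921182, minus strand: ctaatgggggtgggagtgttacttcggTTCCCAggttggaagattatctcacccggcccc
PLK2, chr5:58460214-58460273, minus strand: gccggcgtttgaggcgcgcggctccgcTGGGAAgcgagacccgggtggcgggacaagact
A match is a description of these letters and not a bound site. The 250 bases searched at NRARP held none of the RBPJ letters, which says nothing about binding elsewhere.

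Among secreted factors, 4 of 9 tested rose and 4 fell in MB157R iEV, shares near those of all genes (45% and 45.3%). With SOX2, 2 of 8 tested rose and 5 fell, against 32.5% and 33.9% of all genes. IGFBP3 (chr7:45912245-45921272) had the widest span of the set among genes counted in every library. Its level was 5.67, 5.58 and 5.45 CPM in MB157 iEV, 12.4, 12.4 and 12.3 in MB157 iSOX2, 62.9, 59.8 and 78.0 in MB157R iEV and 2250, 2320 and 2334 in MB157R iN1-ICD, and each group lay wholly above the one before. The rise was 12-fold in MB157R iEV (log2 fold change 3.59 ± 0.10; edgeR adjusted p = 1.39e-12) and 2.22-fold with SOX2 (1.16 ± 0.08; edgeR adjusted p = 2.09e-09), and the N1-ICD level was 414-fold that of MB157 iEV. PAPPA, a metalloprotease that cleaves binding proteins of insulin-like growth factors, had 0 counts in MB157 iEV and 2 counts in MB157 iSOX2. In MB157R iEV it stood at 13.2, 13.2 and 17.0 CPM, at least 561-fold higher than MB157 iEV taken at a floor of 3 counts over its libraries, and with N1-ICD at 55.4, 49.2 and 48.8 CPM. The floor covers counting error only.

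INHBB, the activin βB subunit, and SERPINA3 were secreted members that fell in both tested comparisons. INHBB stood at 22.5, 21.4 and 23.0 CPM in MB157 iEV, 7.40, 6.99 and 6.89 in MB157 iSOX2, 2.68, 3.18 and 2.33 in MB157R iEV and 25.6, 24.6 and 22.4 in MB157R iN1-ICD, where it overlapped the parental libraries. SERPINA3 was 40.9-fold lower in MB157R iEV (0.437 ± 0.0214 against 17.9 ± 0.600 CPM, mean ± SD, n = 3) and 8.97-fold lower with SOX2 (1.99 ± 0.507 CPM). With N1-ICD it averaged 11.7 CPM, below MB157 iEV. FGFBP1 fell in both comparisons and had its lowest level with SOX2. Its libraries held 20.1, 20.0 and 21.6 CPM in MB157 iEV, 3.24, 2.82 and 2.91 in MB157 iSOX2, 10.8, 9.69 and 10.2 in MB157R iEV and 132, 99.2 and 148 in MB157R iN1-ICD. Those values did not overlap between any of the groups.

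Matrilysin (MMP7), a matrix protease, and TGFB2, a ligand of the TGF-β family, rose in the resistant line by 1.91-fold and 1.71-fold. With SOX2, MMP7 fell 2.61-fold and TGFB2 rose 1.22-fold. The N1-ICD libraries held 317 CPM of MMP7, 25.1-fold the parental level, and 214 CPM of TGFB2. The matrix glycoprotein genes ADAMTSL4 and FBLN7 differed in direction, with ADAMTSL4 2.31-fold lower and FBLN7 9.02-fold higher in MB157R iEV. FBLN7 was low in MB157, at 0.986, 1.33 and 1.03 CPM in MB157 iEV and 0.368, 0.560 and 0.633 in MB157 iSOX2. IL12A, a subunit of interleukin-12, stood at 2.13, 2.76 and 1.82 CPM in MB157 iEV, 1.84, 1.70 and 1.63 in MB157 iSOX2, 1.95, 1.74 and 1.81 in MB157R iEV and 6.18, 6.52 and 6.14 in MB157R iN1-ICD. Its log2 fold change was -0.29 ± 0.19 in MB157R iEV (standard error, edgeR adjusted p = 0.165) and -0.38 ± 0.19 with SOX2 (edgeR adjusted p = 0.0909).

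Membrane members made up 5 of the 7 genes outside the filtered table of MB157R iEV against MB157 iEV. FLT1, a receptor of vascular endothelial growth factor, stood at 0.555, 0.333 and 0.270 CPM in MB157 iEV, 1.30, 1.43 and 1.81 in MB157 iSOX2, 0.413, 0.710 and 0.437 in MB157R iEV and 84.4, 79.4 and 90.4 in MB157R iN1-ICD. The high level belonged to the N1-ICD libraries alone. Markers of endothelial cells did not move together. The 5 genes summed to 7.46 to 8.32 CPM in MB157 iEV, 103 to 112 in MB157 iSOX2, 4.24 to 4.70 in MB157R iEV and 44.9 to 49.8 with N1-ICD. In MB157 iEV the sum was mainly VWF (6.68 CPM). With SOX2 the sum was mainly PECAM1 (94.5 CPM) and with N1-ICD mainly KDR (22.0 CPM) and TEK (18.9 CPM), while CDH5, with 0 counts in MB157 iEV, did not exceed a mean of 1.54 CPM. VWF averaged 0.832 CPM in MB157R iEV and 5.28 with N1-ICD. PECAM1 (0.409 and 0.286 CPM) and CDH5 (1.54 and 0.987 CPM) averaged lower with N1-ICD than in MB157R iEV, with overlapping libraries. The part of these 5 markers in the level of FLT1 was not tested.

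LYPD5, a GPI-anchored protein of the LY6 family, had 0 counts in all 6 MB157 libraries and stood at 2.52, 1.93 and 1.87 CPM in MB157R iEV and 6.88, 7.42 and 7.10 with N1-ICD, so it was at least 80.9-fold and 274-fold higher than the floor of 3 counts over MB157 iEV. The UDP receptor P2RY6 averaged 0.405 CPM in MB157 iEV, 0.292 in MB157 iSOX2, 1.25 in MB157R iEV and 7.38 with N1-ICD. XK, a membrane protein linked to the Kell blood group, averaged 1.41, 1.38, 2.15 and 9.52 CPM in the same order. IL20RA, a subunit of the receptors for interleukin-20 cytokines, averaged 2.41, 3.86, 3.33 and 7.29 CPM. For these 3 genes the N1-ICD libraries lay above all others.

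Of the 6 membrane members tested, 4 fell and 2 rose in MB157R iEV, and 4 fell and 1 rose with SOX2. Over all genes 45.3% fell and 45% rose in the first comparison, and 33.9% and 32.5% in the second. FAT2, found at the junctions of squamous epithelia, stood at 214, 215 and 198 CPM in MB157 iEV, 69.2, 65.1 and 66.1 in MB157 iSOX2, 4.06, 2.89 and 4.22 in MB157R iEV and 35.9, 26.2 and 27.3 in MB157R iN1-ICD, without overlap. Its N1-ICD level was 8.01-fold that of MB157R iEV and 7.01-fold below the parental one. The potassium channel genes went apart: KCNK5, for a leak channel, was 4.09-fold lower and KCNG1, for a modifying subunit, 2.04-fold higher in MB157R iEV. With SOX2, KCNG1 had a log2 fold change of -0.15 ± 0.10 (standard error, edgeR adjusted p = 0.216). JPH2, which ties the plasma membrane to the endoplasmic reticulum, fell 2.05-fold in MB157R iEV and 2.81-fold with SOX2. NCR3LG1, the ligand of an activating receptor on natural killer cells, rose in both (1.24-fold and 1.28-fold). TFRC stayed within a narrow range, with 549.8, 408, 514 and 625 CPM in MB157 iEV, with SOX2, in MB157R iEV and with N1-ICD. Its fall in MB157R iEV (-0.10; edgeR adjusted p = 0.0203) was lost without MB157 iEV replicate 2 (-0.07, edgeR adjusted p = 0.103) or 3 (-0.08, edgeR adjusted p = 0.0707) and without MB157R iEV replicate 1 (-0.09, edgeR adjusted p = 0.0665) or 2 (-0.08, edgeR adjusted p = 0.0631).

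Members of the stress and growth group, also drawn up with earlier results known, differed in direction from the transcription genes. Of 9 tested in MB157R iEV, 7 rose and 2 fell (median log2 fold change 2.87), where 45% of all genes rose and 45.3% fell. With N1-ICD 8 of the 9 were at least 2-fold above MB157 iEV, as were 23.1% of all genes. GADD45A (chr1:67685201-67688334), induced by DNA damage and cell stress, stood at 3.48, 4.04 and 3.36 CPM in MB157 iEV, 4.68, 4.79 and 4.81 in MB157 iSOX2, 44.4, 48.1 and 44.3 in MB157R iEV and 307, 309 and 313 in MB157R iN1-ICD. Each group lay wholly above the one before it. DUSP5 (chr10:110497907-110511533) followed with 1.23, 1.19 and 1.55 CPM in MB157 iEV, 1.69, 1.81 and 1.56 in MB157 iSOX2, 31.3, 31.6 and 28.6 in MB157R iEV and 270, 248 and 290.3 in MB157R iN1-ICD. The rise in MB157R iEV was 12.6-fold for GADD45A (log2 fold change 3.65 ± 0.08; edgeR adjusted p = 5.83e-14) and 23.1-fold for DUSP5 (4.52 ± 0.10; edgeR adjusted p = 1.02e-13).

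SOX2 gave mixed directions in this group, with 4 of 8 tested higher and 4 lower (32.5% and 33.9% of all genes). PLK2, a polo-like kinase of the stress response, stood at 11.4, 11.0 and 11.9 CPM in MB157 iEV, 36.3, 38.6 and 37.5 in MB157 iSOX2, 165, 159.9 and 165 in MB157R iEV and 355, 353 and 382 in MB157R iN1-ICD. It rose with SOX2 (log2 fold change 1.72 ± 0.05; edgeR adjusted p = 6.75e-14) and in MB157R iEV (3.84 ± 0.04; edgeR adjusted p = 2.89e-16). PMAIP1, which encodes the pro-apoptotic NOXA, and the early response gene IER3 fell with SOX2 by 1.91-fold and 1.94-fold, while in MB157R iEV they rose 8.23-fold and 7.32-fold. ARRDC4, of the arrestin family, rose in both comparisons (1.84-fold and 2.84-fold), as did the metallothionein gene MT1X (1.25-fold and 3.78-fold). MT1X has close paralogs that may share reads, although its counts were whole in every library. The rise of MT1X with SOX2 was lost without MB157 iEV replicate 1 (log2 fold change 0.22, edgeR adjusted p = 0.122), MB157 iSOX2 replicate 1 (0.26, edgeR adjusted p = 0.0943) or MB157 iSOX2 replicate 3 (0.30, edgeR adjusted p = 0.0777).

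SAT1, the acetyltransferase that sets polyamine breakdown, and GAS5, a long non-coding RNA that hosts small nucleolar RNAs, were the stress members that fell in MB157R iEV. SAT1 stood at 736, 802 and 772 CPM in MB157 iEV, 449, 465 and 454 in MB157 iSOX2, 366, 348 and 376 in MB157R iEV and 1751, 1844 and 1834 in MB157R iN1-ICD, above every parental library. GAS5, at 236 CPM in MB157 iEV, was 6.95-fold lower in MB157R iEV and 1.31-fold lower with SOX2, and at 73.1 CPM with N1-ICD it was 3.23-fold below the parental mean.

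Among genes of signalling, trafficking and the cytoskeleton, 7 of 11 tested fell and 3 rose in MB157R iEV, and 8 of 10 fell and 2 rose with SOX2. The shares over all genes were 45.3% and 45% in MB157R iEV, and 33.9% and 32.5% with SOX2. RHOV, a small GTPase, stood at 99.2, 102 and 92.5 CPM in MB157 iEV, 30.4, 29.8 and 31.5 in MB157 iSOX2, 4.54, 4.19 and 3.93 in MB157R iEV and 95.1, 83.6 and 95.9 in MB157R iN1-ICD, where it overlapped the parental libraries. LURAP1L, related to an adaptor of the actin-myosin machinery, had 85.2, 81.4 and 87.3 CPM in MB157 iEV, 17.8, 19.1 and 17.8 in MB157 iSOX2, 5.09, 4.99 and 5.47 in MB157R iEV and 42.3, 42.2 and 44.6 in MB157R iN1-ICD, without overlap. The fall in MB157R iEV was 23.2-fold for RHOV (log2 fold change -4.54 ± 0.07; edgeR adjusted p = 2.00e-15) and 16.3-fold for LURAP1L (-4.02 ± 0.06; edgeR adjusted p = 2.00e-15).

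MYEOV (chr11:69294155-69297287), which has no settled function, had its lowest level with SOX2 and not in the resistant line. Its libraries held 31.0, 29.4 and 33.8 CPM in MB157 iEV, 1.76, 2.06 and 2.26 in MB157 iSOX2, 5.35, 6.46 and 5.24 in MB157R iEV and 30.0, 31.1 and 33.5 in MB157R iN1-ICD. The first and the last group overlapped, and the fall with SOX2 had a log2 fold change of -3.94 ± 0.09 (edgeR adjusted p = 1.59e-15). IFFO2, of the intermediate filament family, had the same order, at 153, 42.3, 77.9 and 230.3 CPM. RAB11FIP1, an effector of recycling endosomes, fell 4.82-fold in MB157R iEV and 1.32-fold with SOX2, and YPEL2 fell 6.88-fold and 2.22-fold. Both came within 2-fold of MB157 iEV with N1-ICD (331 against 298 CPM and 74.9 against 86.5 CPM).

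The calcium-dependent membrane-binding protein gene CPNE7 was low in all groups, with 5.02, 4.20 and 5.35 CPM in MB157 iEV, 3.48, 3.47 and 3.03 in MB157 iSOX2, 2.11, 2.37 and 2.14 in MB157R iEV and 4.91, 7.62 and 5.95 in MB157R iN1-ICD. It fell 2.20-fold in MB157R iEV (edgeR adjusted p = 6.72e-06) and 1.46-fold with SOX2 (edgeR adjusted p = 0.00184), and the parental and N1-ICD libraries overlapped. ENC1 rose in both comparisons, from 38.1, 34.3 and 36.3 CPM in MB157 iEV to 77.9, 76.4 and 81.7 in MB157 iSOX2 and 169, 166 and 159.5 in MB157R iEV, and stood at 526, 569 and 539.8 with N1-ICD. CDK5R1, the activator of the kinase CDK5, rose 5.64-fold in MB157R iEV and 1.25-fold with SOX2. PRR5L, which binds the kinase complex mTORC2 and holds the GTGGGAA letters printed above, stood at 1.17, 1.76 and 1.52 CPM in MB157 iEV, 0.956, 0.739 and 0.972 in MB157 iSOX2, 13.0, 15.1 and 14.2 in MB157R iEV and 51.7, 45.0 and 52.4 in MB157R iN1-ICD. It rose 9.50-fold in MB157R iEV and was outside the filtered table with SOX2.

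PDZD2, a large PDZ-domain protein, had 102, 103 and 104 CPM in MB157 iEV and 104, 90.3 and 111 in MB157R iEV. The log2 fold change was -0.01 ± 0.06 (standard error, edgeR adjusted p = 0.816). PDZD2 averaged 88.7 CPM with SOX2 and 212 with N1-ICD. Its counts were not whole in 7 of 12 libraries, as happens when reads are shared between entries. ACTBL2, an actin gene with close paralogs, stood at 0.431, 0.665 and 0.368 CPM in MB157 iEV, 0, 0.134 and 0.271 in MB157 iSOX2, 2.46, 1.74 and 3.28 in MB157R iEV and 33.3, 33.6 and 35.8 in MB157R iN1-ICD. The N1-ICD libraries lay far above the rest.

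The 4 genes of lipid and xenobiotic metabolism included the widest fall of the set. CYP1B1 (chr2:38067509-38076151) stood at 856, 868 and 832 CPM in MB157 iEV, 195, 201 and 203 in MB157 iSOX2, 2.23, 2.59 and 2.20 in MB157R iEV and 48.4, 40.9 and 48.2 in MB157R iN1-ICD, and no groups overlapped. The log2 fold change was -8.51 ± 0.06 in MB157R iEV (edgeR adjusted p = 2.51e-17) and -2.09 ± 0.03 with SOX2 (edgeR adjusted p = 3.61e-18). Although N1-ICD libraries held 19.6-fold the level of MB157R iEV, they stayed 18.6-fold below MB157 iEV. The desaturase gene SCD5 fell 3.22-fold in MB157R iEV and 1.18-fold with SOX2, and CERS1, a ceramide synthase gene, 2.41-fold and 1.16-fold. CERS1 shares a transcription unit with GDF1, and its counts were not whole in 9 of 12 libraries. Its fall with SOX2 was lost without MB157 iEV replicate 1 (log2 fold change -0.20, edgeR adjusted p = 0.0537), MB157 iEV replicate 3 (-0.16, edgeR adjusted p = 0.109) or MB157 iSOX2 replicate 1 (-0.13, edgeR adjusted p = 0.133). STARD4, which carries cholesterol between membranes, rose 2.91-fold in MB157R iEV and 1.38-fold with SOX2.

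The signature genes set aside and the pathway itself were counted in the same fits. There 45.3% of all genes were lower and 45% higher in MB157R iEV, and 33.9% and 32.5% with SOX2. Of the 24 set aside, 22 were tested in MB157R iEV, 14 lower and 8 higher (median log2 fold change -0.80), and 18 with SOX2, 13 lower and 4 higher (median -0.88). Of 34 NOTCH pathway components outside the signature (receptors, ligands, proteases, RBPJ, Mastermind proteins and modifiers), 28 were tested in MB157R iEV, 14 lower (50%) and 11 higher (39.3%), near the shares of all genes, and 28 with SOX2, 5 lower (17.9%) and 14 higher (50%). With SOX2 the median log2 fold change of these components was 0.11, where that of the 43 tested members was -0.54. In the same comparison NOTCH1 itself was 2.80-fold lower, and RBPJ 1.17-fold.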

How the data were processed

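Per the labels and the paper's methods, the authors made stranded mRNA libraries, mapped paired reads to hg38 (STAR), estimated gene counts with Salmon (nf-core/rnaseq, reverse-strand setting) and deposited estimated counts per gene for 12 libraries. They also deposited 3 tables of log2 CPM, each on 6 libraries with TMM factors (edgeR 3.42.4, limma 3.56.2) and without low-TPM or low-count genes, uncharacterized genes, predicted genes and pseudogenes. The gene annotation is not given in the sources used here. Here the estimated counts were rounded, restricted to the genes of each filtered table and tested with edgeR 4.0.16 (quasi-likelihood, TMM, library totals of all entries, R 4.3.3) on the 6 libraries of a comparison. MB157R iN1-ICD against MB157 iEV has no filtered table of its own. Its fit took the genes in the filtered table of either comparison that includes MB157R iEV. Genes with a p under 0.05 after Benjamini-Hochberg adjustment over all genes tested were called. The test was also run on simulated counts with few changed genes and a common dispersion. That run does not cover comparisons in which most genes differ, as they do here. CPM levels used TMM factors over all 12 libraries. Nothing says that libraries came from separate days, so the p-values cover only the spread among these libraries, which may be technical. Total counts of 32773820 to 49055208 per library set the counting precision.

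Part of the signature had been chosen by the study on MB157R iN1-ICD against MB157R iEV, together with published washout data and curated targets. The members, role groups and lists used here were chosen with earlier results of these data known. Named in full were ANKRD1, DUSP5, CYP1B1, CPNE7, GADD45A, MYEOV and NRARP, the 5 largest rises and falls past the test in each tested comparison (at least 1 CPM, no overlap), the 5 largest differences with N1-ICD, and members in a class of 5 or fewer, untested or at 0. Others are named for their role. Gene positions are from RefSeq on GRCh38.p14. Alternatives were RLE factors, library totals, a filter on a mean count of 5, no filter, limma-voom (limma 3.58.1), DESeq2 1.42.0, 1 fit over 12 libraries, the replicate number as a block, testing for more than 2-fold change, and leaving out each library.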

Additional observations from a re-analysis of the deposited data

How the results depend on the processing

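The counts of members that passed held under RLE factors, library totals alone, limma-voom, DESeq2 and 1 fit over 12 libraries, within 1 gene in each direction. In MB157R iEV against MB157 iEV the counts with each library left out were 17 higher and 26 lower, and 23 higher and 25 lower with a mean count of at least 5 or no filter, where all 53 members entered. In MB157 iSOX2 against MB157 iEV they were 10 to 11 higher and 29 to 30 lower with a library left out, and 13 higher and 33 lower with either other filter. Tested against a log2 fold change of 1, which asks for a larger change, 2 members were higher and 15 lower with SOX2, and 13 higher and 20 lower in MB157R iEV. With N1-ICD, 49 to 51 members were at 2-fold or more with a library left out, and against MB157 iEV 28 to 30 were 2-fold higher and 7 to 8 lower. Same-numbered libraries did not deviate together (r -0.152 to 0.157, other numbers -0.185 to 0.184), and with a replicate block the counts were 17 higher and 27 lower in MB157R iEV and 11 higher and 30 lower with SOX2. No called fold change turned direction. TFRC and ANKRD1 lost their falls in MB157R iEV with either other filter (TFRC -0.03 and -0.02, edgeR adjusted p = 0.502 and 0.681; ANKRD1 -0.13 and -0.13, edgeR adjusted p = 0.0856 and 0.0921), and CERS1 its fall with SOX2 under library totals alone (-0.15; edgeR adjusted p = 0.0945). IL12A passed with SOX2 without MB157 iEV replicate 3 (-0.51; edgeR adjusted p = 0.0318) and in the fit over 12 libraries (-0.38; edgeR adjusted p = 0.0463). Levels under 1 CPM rest on few counts, so differences there may be missed.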

Other observations

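Members outside the filtered tables were also fitted with no filter. In MB157R iEV against MB157 iEV the log2 fold change was 2.42 for ACTBL2 (edgeR adjusted p = 1.38e-07), 1.69 for P2RY6 (edgeR adjusted p = 6.34e-05), 0.69 for XK (edgeR adjusted p = 0.00361), 0.55 for IL20RA (edgeR adjusted p = 0.00686) and 0.53 for FLT1 (edgeR adjusted p = 0.254). With SOX2 it was 2.0 for FLT1 (edgeR adjusted p = 9.52e-08), 0.68 for IL20RA (edgeR adjusted p = 0.000281), -1.10 for FBLN7 (edgeR adjusted p = 0.00158), -1.81 for ACTBL2 (edgeR adjusted p = 0.00645), -0.75 for PRR5L (edgeR adjusted p = 0.00892), 0.35 for DUSP5 (edgeR adjusted p = 0.197), -0.47 for P2RY6 (edgeR adjusted p = 0.429) and -0.03 for XK (edgeR adjusted p = 0.925). PAPPA and LYPD5 had 0 counts in MB157 iEV, so no fitted fold change is given for them. PAPPA did not pass with SOX2 (edgeR adjusted p = 0.401), and both passed in MB157R iEV (edgeR adjusted p = 1.54e-16 and 5.91e-11).

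In MB157R iN1-ICD, NOTCH1 stood at 2617, 1760 and 2588 CPM in replicates 1, 2 and 3. Replicate 2 held the lowest level of 24 of the 53 members (45.3%), among them NRARP, ANKRD1, FGFBP1, MMP7 and RHOV, and of 35.2% of 13613 genes at 1 CPM or more in that group. It also held the highest level of 16 members, among them SAT1, ENC1 and MT1X, where replicates 1 and 3 held that of 18 and 19. Of the 13613 genes, 5055 were highest in replicate 2. Whether members follow the NOTCH1 level was not tested.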
